A study of Rattus norvegicus with 24 samples.

Results

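The spontaneously hypertensive rat (SHR) is an inbred strain with high blood pressure that is also used as a genetic model of attention deficit hyperactivity disorder (ADHD). It was compared here with the Wistar-Kyoto rat (WKY), the inbred strain of the same stock that serves as its control. The comparison takes the 6 arrays whose titles end in SHR and the 6 that end in WKY, so 12 of the 24 arrays of the series, paired within 6 regions: hippocampus, prefrontal cortex, both parts of the striatum (dorsal and ventral), the cerebellar vermis, and a midbrain sample of substantia nigra and ventral tegmental area (VTA). The rats were male, 8 of each strain, taken at postnatal day 55 to 65, and the labels name no treatment for either strain. Each strain gave 1 array per region, and whether an array held RNA of 1 rat or of several is not stated. The 6 arrays of unexposed Sprague-Dawley rats (SD, also 8 males of that age) are used as an outside level only.

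Inbred strains differ at many inherited variants. A variant in or near a gene can set the RNA level of that gene wherever it is expressed, while other variants act in some cell types only. Genes also sit in a fixed order on the chromosomes, short genes crowd together in some stretches and long genes in others, and neighbours can share a promoter region. On this array a transcript is read by a probe set, a group of short probes placed mostly near the 3' end of the transcript, and many genes have several probe sets for different ends or forms of the transcript.

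Signals are the deposited MAS5 signals, on a linear scale that was set to the same trimmed mean on every array. A difference is SHR minus WKY of log2(signal + 1) within a region, averaged over the 6 regions, with the standard error (SE) of the limma fit (n = 6 differences), so 1 on this scale is a doubling. A probe set or gene is called higher or lower where the adjusted p, from limma with Benjamini-Hochberg adjustment over 15521 probe sets, was under 0.05. The design names 8 rats per strain from which the regions were taken, and which rats went into which array is not stated, so a small p says that regions agree and does not measure the spread between animals.

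The arrays of the 2 strains were not alike in overall level. The median signal over all probe sets ran from 132 to 178 on the SHR arrays and from 109 to 153 on the WKY arrays, and was higher in SHR in 6 of 6 regions. For beta-actin, the 3' control probe set stood over the 5' one by a log2 ratio that averaged 3.78 in SHR and 4.30 in WKY and was lower in SHR in 6 regions, and that of Gapdh averaged 1.53 and 1.91 and was lower in 5. Region labels held up: the summed signal of 8 striatal neuron markers was 41891 and 46203 in SHR and WKY dorsal striatum against at most 4773 outside the striatum, and that of 8 cerebellar markers was 87143 and 98890 in the vermis. Some regional signals differed between the strains: the cerebellar list summed to 13109 in WKY and 7279 in SHR prefrontal cortex, and 6 choroid plexus markers summed to 1332 in SHR and 9307 in WKY substantia nigra/VTA and to 8472 and 917 in the vermis. Blood, vessel and meningeal markers were higher in SHR. The summed signal of 14 markers of meninges and fibroblasts, 9 of them tested, ran from 4709 to 23913 in SHR and from 2658 to 8559 in WKY. That of 11 endothelial and pericyte markers ran from 4350 to 9419 and from 2082 to 5653, and that of 3 blood markers from 4747 to 10942 and from 1263 to 3383. All 3 sums were higher in SHR in 6 regions and no marker of these lists was at 0 on all 12 arrays. In such tissue, more cells of a type and more RNA per cell cannot be told apart.

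Of 15521 probe sets tested, 5829 were called (37.6%), 3167 higher (20.4%) and 2662 lower (17.2%). With 1 probe set for each of 9028 genes, 2348 genes were higher (26.0%) and 1264 lower (14.0%), and past a 2-fold difference 259 were higher (2.87%) and 101 lower (1.12%). Quantile normalization gave 2016 genes higher (22.3%) and 1210 lower (13.4%). Past 2-fold it gave 136 higher and 131 lower, and cyclic loess gave 134 and 134, so the lean to higher genes past 2-fold is absent under those scalings. Over probe sets the balance changed sides with the scaling: quantile normalization gave 2652 higher and 2720 lower, and centring each array on its median, which moved the median difference by -0.337, gave 776 higher and 6229 lower. Counts by direction are therefore read below against the same counts over all genes. Of the 360 genes past 2-fold, 318 had 1 sign in all 6 regions and 159 had SHR and WKY signals that did not overlap. Over all genes 581 of 9028 did not overlap (6.44%), and over all probe sets tested 31.4% had 1 sign in 6 regions; the 360 were chosen for a large and even difference, so nothing is read from their higher shares.

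The genes that stood out most from their own spread between regions were of many kinds. Ephx2, the soluble epoxide hydrolase that opens fatty acid epoxides, had signals of 386 to 722 in SHR (median 500) and of 28.4 to 74.7 in WKY (median 54.7). Its lowest SHR array was several times its highest WKY array, the difference was 3.33 ± 0.23 (SE; adjusted p = 5.23e-06), and it ran from 2.68 in prefrontal cortex to 4.01 in hippocampus. Kif13a, a kinesin motor that carries vesicles along microtubules, had signals of 1030 to 4160 in SHR (median 1632) and 252 to 860 in WKY (median 292), a difference of 2.40 ± 0.14 (adjusted p = 1.21e-06). Cbs, cystathionine beta-synthase of the pathway from homocysteine to cysteine, had 275 to 756 in SHR (median 685) and 73.6 to 265 in WKY (median 227). Its difference was 1.64 ± 0.14 (adjusted p = 1.73e-05) and varied only from 1.48 to 1.89. Actr8, an actin-related protein of the INO80 chromatin remodeller, and Mrps6, of the small mitochondrial ribosomal subunit, both rose by 1.69 ± 0.14 (adjusted p = 1.57e-05 each), and for both the smallest difference, 1.05, was in the vermis.

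The other rises include genes of the synapse and of blood. Shank3, a scaffold of excitatory synapses, had signals of 592 to 3564 in SHR and 210 to 1215 in WKY and rose by 1.78 ± 0.11 (adjusted p = 2.58e-06), and its groups overlapped although it was higher in SHR in 6 of 6 regions. Dnm1, the neuronal dynamin of vesicle retrieval, rose by 1.20 ± 0.10 (adjusted p = 2.38e-05). Hbb, a beta globin read by a probe set whose sequence is shared by related genes, rose by 1.71 ± 0.11 (adjusted p = 2.79e-06) and is the only blood marker that was tested; it makes up nearly all of the blood sum above (10847 of 10942 on the highest array), so that sum is no separate check of it. Ptgds, prostaglandin D synthase of the meninges and choroid plexus, rose by 1.52 ± 0.13 (adjusted p = 1.84e-05), least in dorsal striatum (0.92), the region in which the median of the meningeal list was also smallest, 0.26 against 1.35 to 2.06 elsewhere. Ptgds is itself in that list and makes up much of its sum (14885 of 23913 on the highest array), so the list is no separate check of it. Snrpd2, a core protein of spliceosomal particles, rose by 1.52 ± 0.13 (adjusted p = 2.37e-05).

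The falls were as even. Cfap418, a cilium-associated protein, had signals of 795 to 1133 in SHR (median 964) and 2433 to 3498 in WKY (median 3090), and all 6 differences lay between -1.76 and -1.54 (mean -1.66 ± 0.085, adjusted p = 5.68e-07). Prune1, an exopolyphosphatase, had 114 to 187 in SHR and 645 to 1117 in WKY, a difference of -2.60 ± 0.16 (adjusted p = 1.67e-06). Nt5dc1, a nucleotidase-like protein, had 81.5 to 240 in SHR and 916 to 1117 in WKY, a difference of -2.68 ± 0.19 (adjusted p = 7.29e-06). None of these groups overlapped. Cat, the peroxisomal catalase that breaks down hydrogen peroxide, had 651 to 1106 in SHR and 1501 to 5141 in WKY and fell by 1.63 ± 0.16 (adjusted p = 3.83e-05). Dusp1, a phosphatase that shuts off MAP kinases, fell by 1.70 ± 0.13 (adjusted p = 1.09e-05), and Igf1r, the receptor of insulin-like growth factor 1, fell by 1.31 ± 0.12 (adjusted p = 3.08e-05) on its brighter probe set, with 0.33 ± 0.21 (adjusted p = 0.221) on the other. Elavl1, an RNA-binding protein that stabilises messages, was read by 3 probe sets, of which the brightest fell by 2.08 ± 0.12 (adjusted p = 1.29e-06), one fell by 0.91 ± 0.22 (adjusted p = 0.00794) and one gave 0.78 ± 0.38 (adjusted p = 0.129). Fyttd1 (-1.21 ± 0.093, adjusted p = 1.09e-05), Cisd2 (-1.38 ± 0.11, adjusted p = 1.57e-05) and Tmco1 (-1.85 ± 0.17, adjusted p = 3.46e-05), an mRNA export adaptor, an iron-sulfur protein of the endoplasmic reticulum and a calcium channel of that compartment, complete the 10 falls. Of the further probe sets of Cisd2 one gave 0.04 ± 0.14 (adjusted p = 0.856). The other rose by 0.55 ± 0.20 (adjusted p = 0.0442, but 0.194 after quantile normalization). The further probe set of Fyttd1 gave -0.80 ± 0.32 (adjusted p = 0.0658).

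**Figure D1:**
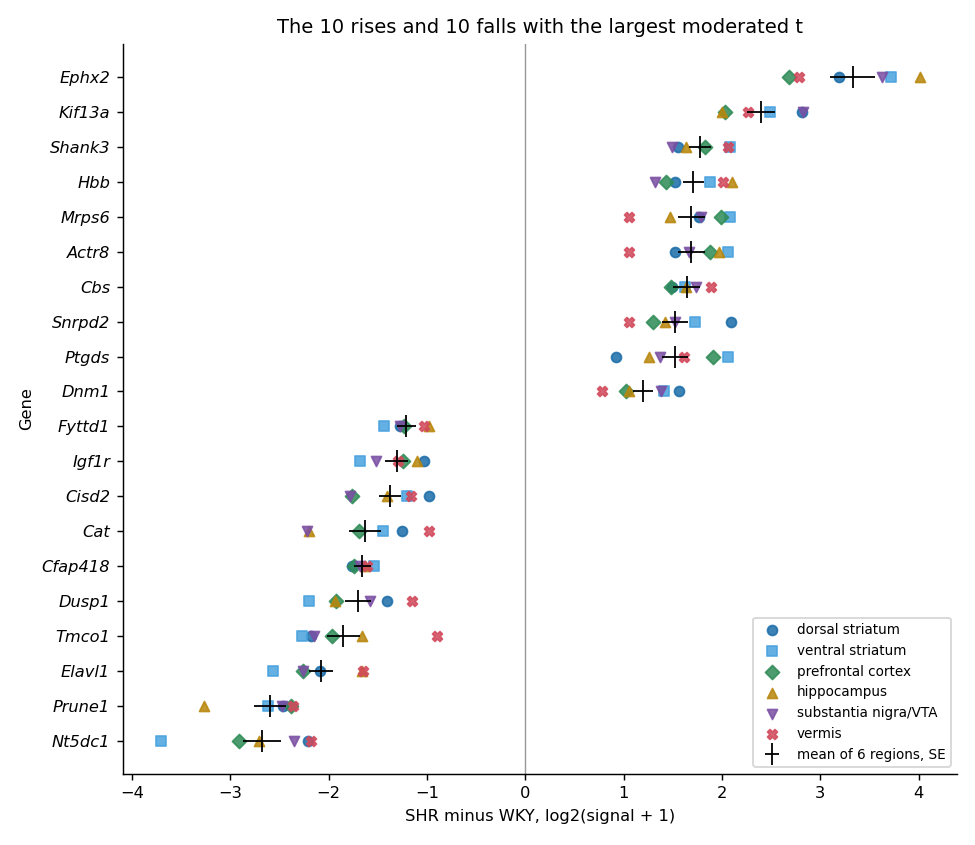
Difference between the strains (horizontal axis, SHR minus WKY, log2(signal + 1)) for the 10 rises and 10 falls with the largest moderated t among genes past 2-fold with 1 sign in 6 regions (vertical axis); each symbol is 1 region, the vertical tick is the mean and the bar its SE (n = 6). The choice of genes puts every symbol on its gene's side of 0; Cfap418 has the tightest cluster of the 20 (-1.76 to -1.54), and the vermis is the smallest of 6 for Mrps6 and Actr8 (1.05 each).

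The Sprague-Dawley arrays show which strain stood apart from another stock, as a description. Of the 259 genes past 2-fold higher in SHR, the SD mean was nearer to WKY for 148 and nearer to SHR for 111 (176 and 83 after quantile normalization). Of the 101 past 2-fold lower, it was nearer to WKY for 69 and nearer to SHR for 32 (78 and 23). SD was nearer to WKY more often than to SHR, and the strongest rises lay on both sides. Ephx2 had an SD mean of 445, beside 537 in SHR and 53.3 in WKY, and Kif13a had 2090, beside 2013 and 380. Snrpd2 had an SD mean of 711, beside 1702 in SHR and 588 in WKY, and Cbs had 300, beside 625 and 205. Elavl1 had an SD mean of 6491, beside 1264 in SHR and 5283 in WKY, and Tmco1 had 423, beside 278 and 1000.

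Gene classes were drawn up from symbols, and 43 of them were counted on 1 probe set per gene. Over all 9028 genes 26.0% were higher and 14.0% lower, and the median difference was 0.12 (0.09 after quantile normalization). Each class is set beside these levels. Among classes with at least 10 genes tested, the share higher was largest for epoxide and eicosanoid metabolism (12 of 16), collagens and laminins (59.1%), aldehyde dehydrogenases (57.1%) and glycolysis (56.2%), and the share lower for splicing factors (34.5%) and the MAP kinase cascade (31.8%).

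Of 16 tested genes of epoxide and eicosanoid metabolism (38 on the array), 12 were higher and 0 lower, with a median of 0.53. Beside Ephx2 and Ptgds, Fads2, the delta-6 desaturase, had 187 to 372 in SHR and 72.3 to 132 in WKY and rose by 1.26 ± 0.20 (adjusted p = 0.000836), with no overlap. Ephx1, the microsomal epoxide hydrolase, rose by 0.95 ± 0.20 (adjusted p = 0.0037), least in dorsal striatum (0.28) and most in vermis (1.90). The class median lay between 0.53 and 0.60 in every region, the vermis included (0.57). Glutathione transferases, which couple glutathione to reactive compounds, had 8 of 15 higher and 0 lower (median 0.36), among them Gstm5 (0.83 ± 0.11, adjusted p = 0.000298) and Gstm1 (0.63 ± 0.091, adjusted p = 0.000519). Aldehyde dehydrogenases had 8 of 14 higher and 1 lower (median 0.36). Aldh1l1, the folate enzyme of astrocytes, had 404 to 738 in SHR and 127 to 368 in WKY and rose by 1.49 ± 0.19 (adjusted p = 0.000211), Aldh2 rose by 1.05 ± 0.25 (adjusted p = 0.00725), and Aldh6a1, of valine breakdown, fell by 0.80 ± 0.20 (adjusted p = 0.00879).

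Peroxisomal proteins did not follow those classes: 8 of 35 were higher and 2 lower (median 0.14), near the share of all genes, although the class holds large differences in both directions. Ephx2 (3.33) is counted in this class as well as in epoxide and eicosanoid metabolism, so the classes are not separate. Pxmp4, a peroxisomal membrane protein, had 377 to 670 in SHR and 32.4 to 139 in WKY and rose by 2.84 ± 0.31 (adjusted p = 8.98e-05), while Cat fell. Mitochondrial fatty acid oxidation had 11 of 24 higher and 3 lower (median 0.39), with Acads, the short-chain acyl-CoA dehydrogenase, at 0.97 ± 0.23 (adjusted p = 0.0063).

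Lysosomal enzymes and energy genes were mostly level or higher. Of 33 cathepsins and lysosomal enzymes tested, 17 were higher and 0 lower (median 0.40). Creg1, a lysosomal glycoprotein, had 764 to 1127 in SHR and 128 to 369 in WKY, a rise of 2.02 ± 0.18 (adjusted p = 3.1e-05). Glb1, the lysosomal beta-galactosidase, rose by 1.16 ± 0.19 (adjusted p = 0.000983). Glycolysis had 9 of 16 higher and 0 lower (median 0.29); Gpi, glucose-6-phosphate isomerase, had 2488 to 3828 in SHR and 1416 to 2127 in WKY, and its 6 differences ran only from 0.78 to 0.86 (0.82 ± 0.076, adjusted p = 3.24e-05). Respiratory chain subunits had 35 of 73 higher and 2 lower (median 0.29). Ndufs8, an iron-sulfur subunit of complex I, had 786 to 1017 in SHR and 344 to 498 in WKY and rose by 1.09 ± 0.13 (adjusted p = 0.000171). Mitochondrial ribosomal proteins had 30 of 73 higher and 1 lower (median 0.27) and cytosolic ribosomal proteins 15 of 43 higher and 0 lower (median 0.15). Rpl11, for example, rose by 0.68 ± 0.076 (adjusted p = 0.000118). The citric acid cycle had 4 of 22 higher and 2 lower (median 0.06): Mdh2 rose by 0.65 ± 0.083 (adjusted p = 0.000241), while Cs, citrate synthase, fell by 0.81 ± 0.16 (adjusted p = 0.00273). In the vermis the medians of these classes were smaller: 0.07 for the respiratory chain, -0.07 for mitochondrial ribosomal proteins and -0.09 for cytosolic ribosomal proteins, against at least 0.20, 0.14 and 0.12 in every other region.

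Collagens and laminins, which build the extracellular matrix of vessels and meninges, had 13 of 22 higher and 1 lower (51 on the array) and the largest median of the classes with at least 10 genes tested, 0.69 (0.52 after quantile normalization). Col1a1 had 185 to 811 in SHR and 155 to 267 in WKY and rose by 1.38 ± 0.20 (adjusted p = 0.000458); it differed by 0.26 in dorsal striatum and by 1.48 to 1.72 elsewhere. Lamb2 rose by 1.27 ± 0.20 (adjusted p = 0.000712). These moved with the meningeal markers, of which 9 of 9 tested were higher with a median of 1.38, and with the endothelial ones, of which 7 of 8 were higher with a median of 1.04. Col1a1 and Col1a2 are in both the collagen class and the meningeal list, so neither is a separate check of the other. Lists of the other cell types moved less: 4 of 8 microglial markers were higher (median 0.66), 4 of 10 astrocyte markers (0.14), 3 of 10 oligodendrocyte markers (0.19) and 1 of 9 neuronal markers (-0.01). In dorsal striatum, where the meningeal median was 0.26, the median was 0.33 for collagens and laminins, 0.53 for epoxide and eicosanoid metabolism and 0.61 for lysosomal enzymes. The part of meninges, vessels and blood in these classes was not tested beyond these values.

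Genes of the blood pressure systems (renin-angiotensin, nitric oxide, endothelin and natriuretic peptides) were 7 of 18 higher (38.9%, against 26.0% of all genes) and 0 lower (against 14.0%). Their median was 0.08, below that of all genes. Ramp2, which makes a receptor for adrenomedullin and is strong in endothelium, had 288 to 923 in SHR and 73.4 to 347 in WKY and rose by 1.96 ± 0.18 (adjusted p = 3.09e-05), beside the endothelial markers. Agt, angiotensinogen, the astrocyte-made precursor of angiotensin, rose by 0.91 ± 0.22 (adjusted p = 0.00742), from 2.28 in ventral striatum to no difference in vermis (-0.00). Ramp1, of the CGRP receptor, rose by 0.95 ± 0.18 (adjusted p = 0.00204) and Npr2, the receptor of C-type natriuretic peptide, by 0.85 ± 0.20 (adjusted p = 0.00668). Nosip (0.65 ± 0.16, adjusted p = 0.00885), Ddah1 (0.56 ± 0.14, adjusted p = 0.00993) and Ece2 (0.55 ± 0.15, adjusted p = 0.0147) were the others.

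Of 22 tested genes that are studied as ADHD candidates (42 on the array), 2 were higher and 1 lower (9.09% and 4.55%, against 26.0% and 14.0% of all genes). Without the vermis 3 were higher and 5 lower, so the lower count turns on that region. The shares of all genes also rose without it, to 32.5% higher and 17.4% lower. Cdh13, a cadherin without a transmembrane domain, had 450 to 1383 in SHR and 330 to 840 in WKY and rose by 0.80 ± 0.12 (adjusted p = 0.000642). Ntrk2, the receptor of brain-derived neurotrophic factor, rose by 0.73 ± 0.11 (adjusted p = 0.000587), and Grin2a, an NMDA receptor subunit, fell by 0.51 ± 0.16 (adjusted p = 0.0227, but 0.0755 without dorsal striatum). Snap25 stood at 16450 in SHR and 16971 in WKY on average (-0.03 ± 0.070, adjusted p = 0.755), Drd1, the D1 dopamine receptor, at -0.09 ± 0.19 (adjusted p = 0.733) and Maoa, monoamine oxidase A, at 0.07 ± 0.19 (adjusted p = 0.799). Bdnf (-0.70 ± 0.31, adjusted p = 0.09), Adra2c (0.95 ± 0.36, adjusted p = 0.0552) and Drd2 (0.55 ± 0.34, adjusted p = 0.221) varied between regions by more than their mean difference. Of 9 tested genes known from SHR genetics, 3 were higher: Ephx2, Gstm1 and Ogn, osteoglycin of connective tissue (1.30 ± 0.18, adjusted p = 0.000416), which is also a meningeal marker. Ndufc2 (-0.14 ± 0.069, adjusted p = 0.118) and Add1 (-0.12 ± 0.095, adjusted p = 0.327) did not pass.

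Splicing factors and hnRNPs had the largest share of lower genes among the classes, 19 of 55 lower against 11 higher (median -0.05). Snrpf, a core protein of the same ring as Snrpd2, had 2090 to 3608 in SHR and 3639 to 5484 in WKY and fell by 0.77 ± 0.12 (adjusted p = 0.000735). Hnrnpd, which binds AU-rich messages, fell by 0.76 ± 0.15 (adjusted p = 0.00234). The MAP kinase cascade had 7 of 22 lower and 5 higher (median -0.17). Zinc finger transcription factors had 29 of 192 higher and 31 lower (median 0.02); Zbtb18, a repressor in neurons, fell by 1.31 ± 0.20 (adjusted p = 0.000725), with -0.08 in the vermis. Cadherins and protocadherins had 1 of 16 higher and 4 lower (median -0.19), and synaptic adhesion genes 2 of 23 higher and 4 lower (median -0.00). Cadm1, a synaptic adhesion protein, had 3580 to 5030 in SHR and 5134 to 7997 in WKY, fell by 0.63 ± 0.077 (adjusted p = 0.000201), and its groups did not overlap. No olfactory, vomeronasal or taste receptor of 29 on the array was bright enough to be tested.

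**Figure D2:**
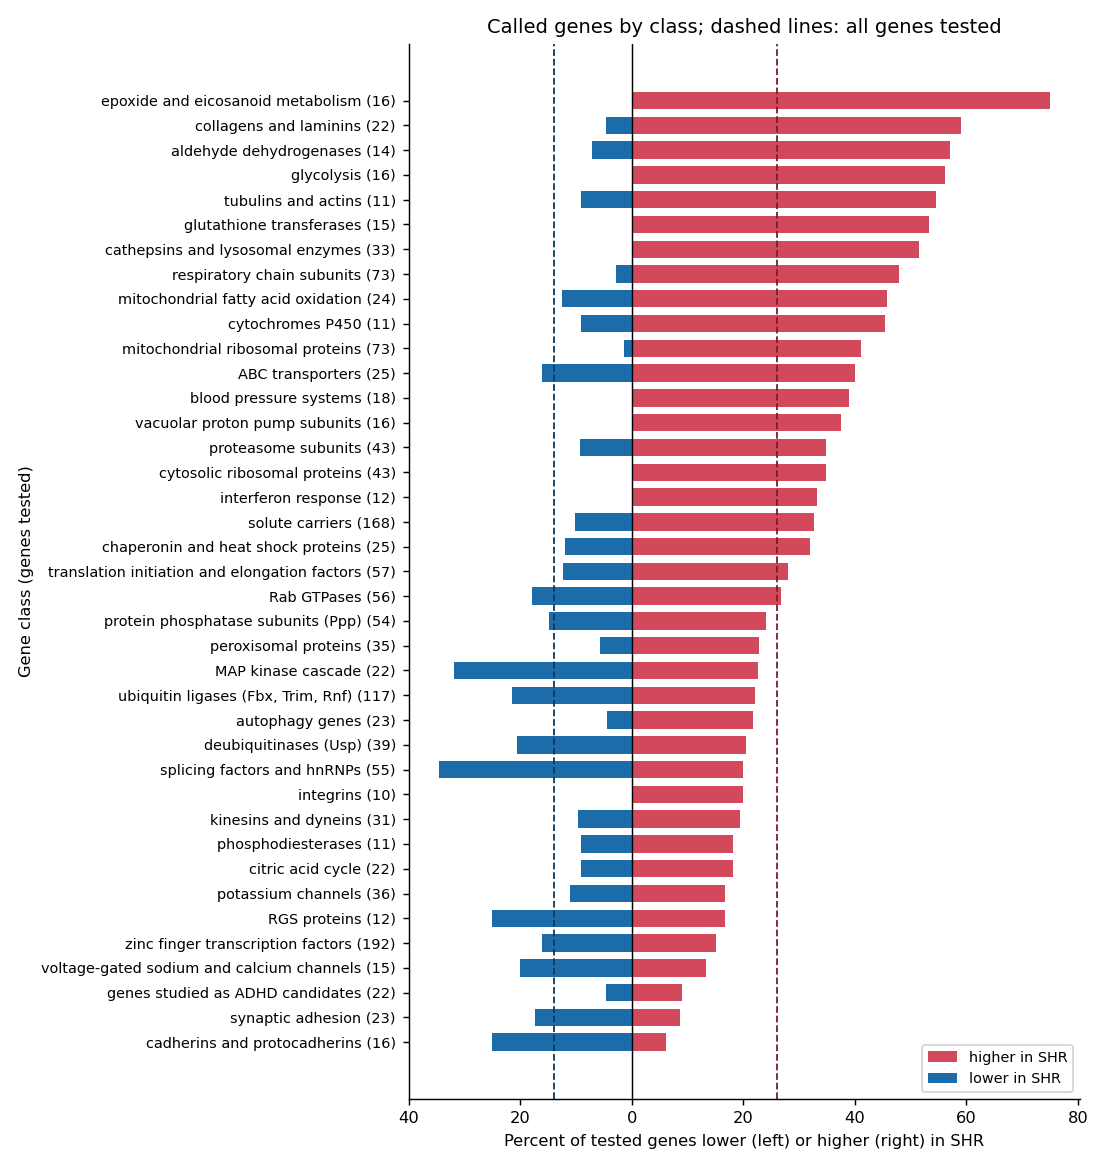
Percent of tested genes called lower (blue, to the left) or higher (red, to the right) in SHR for each gene class with at least 10 genes tested (vertical axis, number tested in parentheses); dashed lines mark all 9028 genes, 14.0% lower and 26.0% higher. Epoxide and eicosanoid metabolism stands at the top with 12 of 16 higher, and splicing factors reach furthest to the left with 19 of 55 lower.

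The classes differ in the length of their genes, and so did the calls. Among the shortest 25% of genes by the span of the gene (median 5.61 kb), 37.0% were higher and 8.58% lower, with a median difference of 0.27. Among the longest 25% (median 119 kb), 14.7% were higher and 20.1% lower, with a median of -0.02. The 2 steps between lay in order at 29.4% and 22.9% higher. Quantile normalization gave 31.8% and 13.5% higher, and 8.62% and 19.3% lower, for the shortest and the longest. The share higher fell with length within dim, middle and bright genes alike: among the brightest 33.3% of genes, 32.4% of the shortest and 9.30% of the longest were higher, and 15.1% and 31.1% were lower. Across genes the correlation of the difference with log2 gene length, a description over genes that share arrays, was -0.15 to -0.22 in 5 regions and -0.03 in the vermis. The 3' to 5' control ratios, given above, differed between the strains too, and their part in this was not tested. Ribosomal and respiratory chain genes are short (median 3.64 kb and 7.09 kb for cytosolic ribosomal proteins and respiratory chain subunits) and cadherins and synaptic adhesion genes long (115 kb and 143 kb). Length does not go with the count in every class: collagens and laminins have a median length of 87.9 kb and were mostly higher, and splicing factors, with 13.6 kb, were more often lower.

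**Figure D3:**
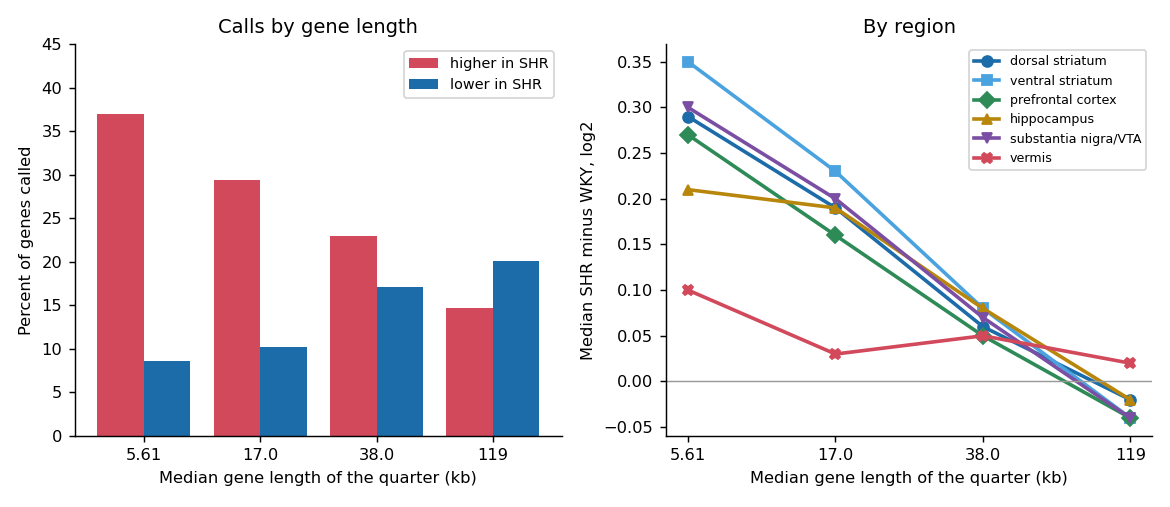
Left, percent of genes called higher (red) or lower (blue) in SHR in 4 groups of 2250 genes by gene length (horizontal axis, median length in kb). Right, median SHR minus WKY difference (log2) of the same groups in each region; lines run from 0.21 to 0.35 down to -0.04 to -0.02 in 5 regions, and from 0.10 to 0.02 in the vermis.

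Position on the chromosomes was examined for 9000 genes placed in the order of the GRCr8 annotation. The share of genes called higher ran from 42 of 262 genes on chromosome 17, 16.1% on chromosome 2 and 16.6% on X to 35.6% on chromosome 12 and 33.2% on chromosome 7. The share lower ran from 8.97% on chromosome 12 to 21.5% on X and 20.7% on chromosome 2. Across 21 chromosomes the share higher went with shorter genes (Pearson r with log2 median gene length -0.773) and the share lower with longer ones (r = 0.579), as descriptions. X is off that line, with a median gene length of 22.2 kb.

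Neighbouring genes shared a direction more often than genes at large. Of 2338 genes called higher that have a next gene, 808 were followed by another higher gene (34.6%, against 26.0% of all genes), and of 1256 called lower, 232 by another lower gene (18.5% against 14.0%). The excess faded with distance: 30.7% and 16.6% at 10 genes on, and 26.0% and 13.9% at 50 genes on. Being called at all hardly clustered, since 42.0% of called genes were followed by a called gene, against 40.0% of all. With genes split at the median length, the excess was smaller for lower genes, and for higher genes where both neighbours were longer. Where both neighbours were at or under the median length, 44.8% of higher genes were followed by a higher gene, against 33.2% of such genes; where both were longer, 22.5% were, against 18.8%. For lower genes the shares were 10.6% against 9.38% among the shorter and 20.9% against 18.6% among the longer. Among the shorter, 32.2% of lower genes were followed by a higher one, near the 33.2% of all such genes that were higher.

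For differences past 2-fold the counts of neighbours were small. Of 257 such higher genes 12 had a next gene past 2-fold higher (4.67% against 2.86%), of 100 lower genes 3 had a next gene past 2-fold lower (against 1.12% of all), and at 2 genes on the lower ones had 0 of 99 (exact 95% interval up to 3.66%). At 5 genes on the higher ones had 14 of 255 (5.49%, exact 95% interval 3.03% to 9.04%), the only distance looked at where their interval lay above the share of all genes. The ratios to all genes for the next gene, 1.64 and 2.67, are above those for all calls, 1.33 and 1.32, but rest on these few pairs, and the difference was not tested. In windows of 20 successive genes, 45.1% held none, 35.2% held 1 and 0.0349% held 6.

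**Figure D4:**
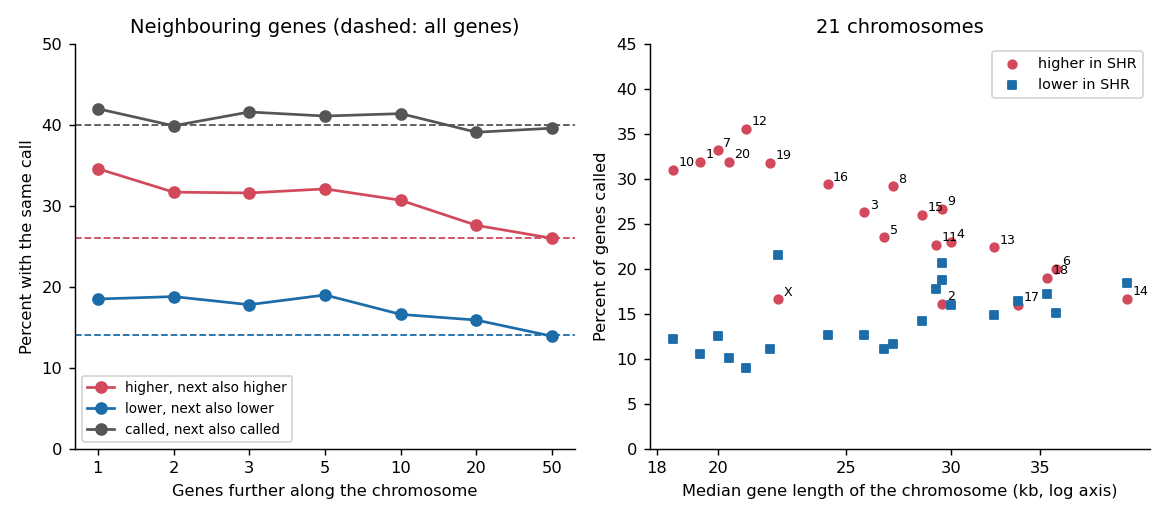
Left, percent of called genes whose neighbour 1 to 50 genes further along (horizontal axis) has the same call, with dashed lines at the share of all genes; the red line falls from 34.6% to 26.0% and the grey line, for any call, stays between 39.1% and 42.0%. Right, percent of genes called higher (red) or lower (blue) on each of 21 chromosomes against the median gene length (kb, log axis).

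The longest runs of successive called genes were all of higher genes and had 8 members. Higher calls were also more common (26.0% of genes, against 14.0% lower), so run lengths are not compared between directions. One on chromosome 12 reached from Pop7 to Plod3 through Ephb4, Trip6, Srrt, Ufsp1, Ap1s1 and Vgf, with differences from 0.32 (Srrt) to 1.24 (Plod3). Vgf, a secreted neuropeptide precursor, rose by 0.68 ± 0.15 (adjusted p = 0.00519). Plod3, a collagen lysyl hydroxylase, rose by 1.24 ± 0.37 (adjusted p = 0.0202), with 3.81 in the vermis, where the WKY array read 24.7, and 0.73 without that region. The other, on chromosome 8, reached from Alas1, the first enzyme of heme synthesis, to Tex264 through Dusp7, Acy1, Abhd14a, Abhd14b, Pcbp4 and Rrp9, with differences from 0.36 to 0.77. Dusp7, a phosphatase of MAP kinases, led it (0.77 ± 0.11, adjusted p = 0.000535). A run of 7 on chromosome 10 held Mafg, Cenpx, Lrrc45, Rac3, Dcxr, Rfng and Gps1, and one of 7 on chromosome 9 held Stk16, Tuba4a, Dnajb2, Ptprn, Resp18, Dnpep and Speg. Rac3 rose by 1.53 ± 0.50 (adjusted p = 0.0298), with 5.06 in the vermis, where the WKY array read 6.94, and 0.15 to 1.62 elsewhere. Of 13 runs of 6, one on chromosome 1 held Kmt5c (1.25 ± 0.20, adjusted p = 0.000983) and Tnnt1 (1.25 ± 0.29, adjusted p = 0.006), and one on chromosome 16 held Mpv17l2 (0.80 ± 0.11, adjusted p = 0.000466) and Mast3 (0.80 ± 0.12, adjusted p = 0.000536). The longest run of lower genes had 5 members on chromosome 20, named here after its values were seen: Tspyl1 (-0.48), Tspyl4 (-1.20), Nt5dc1 (-2.68), Hdac2 (-0.67) and Marcks (-0.55). Single regions carried some of these calls: with 1 region left out, the highest adjusted p (limma) was 0.109 for Srrt, 0.0928 for Ap1s1, 0.0883 for Ufsp1, 0.133 for Abhd14a, 0.131 for Rrp9, 0.118 for Tex264, 0.108 for Alas1, 0.0901 for Abhd14b, 0.114 for Rfng, 0.119 for Speg and 0.0725 for Rac3. Genes spanned 1.01 kb (Ufsp1) to 25.3 kb (Ephb4) in the run on chromosome 12, up to 57.4 kb (Speg) in that on chromosome 9, and 2.00 kb (Tspyl4) to 103 kb (Nt5dc1) in the lower run.

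The densest window of large differences lay on chromosome 19 between Acsf3 and Abcb10, with 6 of 20 genes past 2-fold. Sult5a1, a sulfotransferase, had 226 to 598 in SHR and 92.2 to 211 in WKY and rose by 1.22 ± 0.19 (adjusted p = 0.000775). Spg7 (1.02 ± 0.19), Cpne7 (1.34 ± 0.27), Cdk10 (1.22 ± 0.39) and Vps9d1 (1.06 ± 0.21) rose too. After quantile normalization Spg7 (0.81), Cdk10 (0.96) and Vps9d1 (0.94) were under 2-fold, so the count of 6 depends on the scaling. Cdk10 leaned on ventral striatum (3.39): without it the difference was 0.79 and the adjusted p (limma) 0.0756, and quantile normalization gave 0.0808, so its place among the 6 rests on that region. Abcb10, a mitochondrial transporter, had 112 to 225 in SHR and 304 to 733 in WKY and fell by 1.55 ± 0.18 (adjusted p = 0.00016), so the window holds both directions. A window on chromosome 1 from Bles03 to Tm7sf2 had 5, all higher: Efemp2, Rnaseh2c, Ehbp1l1, Znhit2 and Tm7sf2, a sterol reductase with the largest (1.64 ± 0.28, adjusted p = 0.00133). Under quantile normalization Efemp2 (0.91), Ehbp1l1 (0.95) and Znhit2 (0.91) were under 2-fold, and without the vermis Ehbp1l1 was at 0.88. The next window along, from Arl2 to Ppp1r14b, had Atg2a, Trmt112, Bad and Ppp1r14b, also all higher, between 1.03 and 1.09. Quantile normalization put Atg2a at 0.81 and Bad at 0.95. Another on chromosome 1, from Ranbp6 to Cpeb3, was mixed. Cpeb3, a translation regulator at synapses, had 179 to 485 in SHR and 1253 to 2770 in WKY (-2.37 ± 0.24, adjusted p = 5.71e-05), Ranbp6 (-1.14) and Hectd2 (-1.11) fell with it, and Papss2, which makes the sulfate donor, rose by 1.46 ± 0.17 (adjusted p = 0.000159). From Cox15 to Kcnip2 on that chromosome, Ndufb8, Lzts2 and Kcnip2 were higher and Oga, which removes O-GlcNAc from proteins, lower (-1.56 ± 0.35, adjusted p = 0.00534; 0.90 in the vermis). Kcnip2 passed 2-fold through the vermis (3.77, where the WKY array read 7.19): without it the difference was 0.65, and quantile normalization gave an adjusted p (limma) of 0.0566. Lzts2 was at 0.73 after quantile normalization, and Ndufb8 at 0.83 without the vermis. On chromosome 3, from Phactr3 to Rtel1, Mtg2 (0.98 after quantile normalization), Hrh3, Adrm1 and Rtel1 were higher. Adrm1, a ubiquitin receptor of the proteasome, rose by 1.41 ± 0.15 (adjusted p = 7.67e-05).

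Some neighbours start from one stretch of DNA, transcribed away from each other. Promoters of 7568 of the genes (83.8%) were matched to RefSeq (GRCr8), each as 250 bases before and 50 after the start. In 292 pairs of neighbours these windows overlapped on opposite strands. Where both genes of such a pair were called, 33 of 46 went the same way (71.7%), against 732 of 1079 other neighbour pairs (67.8%). The 3 pairs printed here were chosen after their values were seen: Cenpx and Lrrc45 within the run on chromosome 10, the pair whose shared fall had the largest smaller difference, and the pair whose opposite calls had the largest smaller difference. Capitals mark CCAAT and GGGCGG on either strand (ATTGG and CCGCCC on the printed strand); TATAAA, also searched, is in none of them. The reference is of another strain, so these letters are not those of SHR or WKY.

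Cenpx (GRCr8 chr10:106492588-106492887, minus strand): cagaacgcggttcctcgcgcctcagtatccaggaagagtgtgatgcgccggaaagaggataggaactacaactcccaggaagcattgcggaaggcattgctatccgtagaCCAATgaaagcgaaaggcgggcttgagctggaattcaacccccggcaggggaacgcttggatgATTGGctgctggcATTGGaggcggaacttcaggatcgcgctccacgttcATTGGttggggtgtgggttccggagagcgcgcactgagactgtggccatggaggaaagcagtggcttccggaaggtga
Lrrc45 (GRCr8 chr10:106492596-106492895, plus strand): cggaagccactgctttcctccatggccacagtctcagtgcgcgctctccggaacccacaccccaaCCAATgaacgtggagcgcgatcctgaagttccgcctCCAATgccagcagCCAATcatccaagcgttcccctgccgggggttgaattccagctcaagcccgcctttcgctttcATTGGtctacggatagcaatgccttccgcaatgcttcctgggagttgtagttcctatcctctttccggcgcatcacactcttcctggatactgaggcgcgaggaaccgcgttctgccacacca
Mmut (GRCr8 chr9:27454074-27454373, minus strand): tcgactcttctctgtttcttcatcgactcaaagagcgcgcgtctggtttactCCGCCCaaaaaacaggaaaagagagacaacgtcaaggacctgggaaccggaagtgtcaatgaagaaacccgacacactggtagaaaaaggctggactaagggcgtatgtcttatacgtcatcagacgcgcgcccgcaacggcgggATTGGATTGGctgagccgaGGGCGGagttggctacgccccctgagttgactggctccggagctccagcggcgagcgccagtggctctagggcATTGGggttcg
Cenpq (GRCr8 chr9:27454089-27454388, plus strand): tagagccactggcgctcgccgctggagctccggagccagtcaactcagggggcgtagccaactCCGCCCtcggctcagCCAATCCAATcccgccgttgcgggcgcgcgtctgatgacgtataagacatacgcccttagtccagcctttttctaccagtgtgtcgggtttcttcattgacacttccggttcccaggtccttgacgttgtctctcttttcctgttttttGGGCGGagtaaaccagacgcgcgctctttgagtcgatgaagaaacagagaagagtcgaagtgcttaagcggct
Deaf1 (GRCr8 chr1:205865057-205865356, minus strand): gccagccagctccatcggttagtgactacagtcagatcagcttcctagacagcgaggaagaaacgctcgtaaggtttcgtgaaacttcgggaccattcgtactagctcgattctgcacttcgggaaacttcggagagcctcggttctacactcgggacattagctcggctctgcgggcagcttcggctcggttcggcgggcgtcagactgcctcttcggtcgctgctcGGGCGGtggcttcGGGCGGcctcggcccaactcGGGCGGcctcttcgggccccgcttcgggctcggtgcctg
Tmem80 (GRCr8 chr1:205865314-205865613, plus strand): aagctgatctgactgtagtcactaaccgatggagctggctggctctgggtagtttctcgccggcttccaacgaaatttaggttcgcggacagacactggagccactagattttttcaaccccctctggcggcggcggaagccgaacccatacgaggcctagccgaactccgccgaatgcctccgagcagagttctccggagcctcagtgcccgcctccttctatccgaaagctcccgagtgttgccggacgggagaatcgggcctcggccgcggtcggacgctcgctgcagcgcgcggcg

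Cenpx, a kinetochore and DNA repair protein, had 166 to 375 in SHR and 118 to 238 in WKY (0.72 ± 0.18, adjusted p = 0.00888), and Lrrc45, a centrosome protein, 489 to 718 and 167 to 431 (0.89 ± 0.16, adjusted p = 0.00163). Mmut, the mitochondrial methylmalonyl-CoA mutase, had 702 to 1360 in SHR and 1657 to 2273 in WKY (-0.83 ± 0.13, adjusted p = 0.000688), and Cenpq, a kinetochore protein, 179 to 724 and 541 to 1026 (-0.70 ± 0.19, adjusted p = 0.0124). Both pairs moved together in 6 of 6 regions. Deaf1, a transcription factor, rose (0.62 ± 0.12, adjusted p = 0.00227) and Tmem80, a membrane protein, fell (-0.74 ± 0.20, adjusted p = 0.0127; 0.53 in the vermis), and their windows overlap by few bases. Over whole groups promoter composition hardly differed. CCAAT was in 38.1% of the promoters of all genes tested, 37.5% of higher and 39.9% of lower genes, GGGCGG in 64.6%, 62.7% and 66.5%, and TATAAA in 5.99%, 5.89% and 4.96%. Over all 27457 promoters of the table the shares were 37.7%, 34.9% and 14.3%. TATAAA was in 9.30% of the promoters of genes past 2-fold higher. Median GC content was 60.7% for higher, 63.7% for lower and 61.7% for all genes tested.

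Genes with several probe sets allow the same comparison to be read more than once. There were 3073 pairs of tested probe sets in 1838 genes. In 444 pairs both were called, 372 of them in the same direction (83.8%; 117 both higher and 255 both lower) and 72 in opposite directions. In 1294 pairs only 1 was called, and the other had the same sign in 63.9%. Across pairs the correlation of the differences was 0.29, as a description. The pairs of like level agreed more often: where the mean signals were within 2-fold, 87.3% of the pairs with both called shared a direction (r = 0.39), and where they were over 8-fold apart, 70.9% did (r = 0.08). Probe sets whose suffix marks several transcripts or shared sequence had 86.3% in the same direction, and pairs without it 83.3%.

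Both probe sets of Katnbl1, a katanin-like protein, fell: one had 584 to 968 in SHR and 1353 to 1719 in WKY (-1.04 ± 0.13, adjusted p = 0.000211), the other 406 to 669 and 1153 to 1533 (-1.47 ± 0.14, adjusted p = 3.83e-05). Ank3, ankyrin G of the axon initial segment, fell on both (-1.18 ± 0.17 and -1.72 ± 0.31; adjusted p = 0.000519 and 0.00154), as did Dck, deoxycytidine kinase (-1.50 ± 0.29 and -1.42 ± 0.41; adjusted p = 0.00251 and 0.0183), and Etv5, a transcription factor (-1.29 ± 0.19 and -1.08 ± 0.17; adjusted p = 0.000624 and 0.000859). Col1a1 rose on both (1.38 ± 0.20 and 1.67 ± 0.26), as did Col1a2 (1.43 ± 0.25 and 1.90 ± 0.22), Thbd, thrombomodulin of endothelium (1.34 ± 0.34 and 1.20 ± 0.29), and Ppp1r14b (1.07 ± 0.16 and 1.22 ± 0.17). In all, 192 genes had every probe set called the same way.

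Other genes had opposite calls on their probe sets. For Atxn7, ataxin-7, one probe set had 344 to 618 in SHR and 257 to 417 in WKY (0.60 ± 0.18, adjusted p = 0.0213, but 0.0788 without dorsal striatum), and the other 43.4 to 239 and 306 to 889 (-2.11 ± 0.21, adjusted p = 4.26e-05). For Pet100, an assembly factor of complex IV, one rose by 0.99 ± 0.14 (adjusted p = 0.000409) and the other fell by 1.60 ± 0.17 (adjusted p = 6.57e-05). Tpm1, tropomyosin, which is made in many spliced forms, rose on one (1.41 ± 0.13, adjusted p = 3.1e-05) and fell on the other (-0.82 ± 0.16, adjusted p = 0.00266). Snx10, a sorting nexin, had a bright probe set at 5545 to 10335 in SHR and 2354 to 5559 in WKY (0.98 ± 0.087, adjusted p = 2.7e-05) and a dim one at 53.8 to 129 and 136 to 241 (-1.36 ± 0.26, adjusted p = 0.00228). N4bp1, Slc44a1, Cisd2 and Zbtb20 were the other 4 of the 8 with the largest gap. The rise of Cisd2 on its dimmer probe set was not called after quantile normalization (adjusted p, limma, 0.194) or without substantia nigra/VTA (0.138).

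In 112 pairs, of 96 genes, one probe set passed 2-fold and the other differed by less than 0.25. Ptprj, a receptor tyrosine phosphatase, had the largest fitted gap. Its bright probe set read 1624 to 2907 in SHR and 1462 to 3404 in WKY (-0.06 ± 0.098, adjusted p = 0.664), and its dim one 6.80 to 192 in SHR and 367 to 941 in WKY (-4.54 ± 0.47, adjusted p = 6.48e-05), with no overlap. On 4 of the 6 SHR arrays the dim one read 18.2 or less, far under the filter signal of 123, so the size of this difference depends on readings near background. For Homer1, a scaffold of glutamate receptors with short and long forms, the difference was -0.21 ± 0.23 (adjusted p = 0.486) on the brighter of the pair and -2.06 ± 0.46 (adjusted p = 0.00499) on the dimmer. Map1b, a microtubule protein of axons, gave -0.10 ± 0.079 (adjusted p = 0.343) and -1.70 ± 0.23 (adjusted p = 0.00033), and Ildr2 0.11 ± 0.14 (adjusted p = 0.545) and 1.72 ± 0.37 (adjusted p = 0.00435). Scaper, Lsm12, Nfia and Slc44a1 gave like pairs, all with the large value negative. A gene-level call from 1 probe set therefore describes that probe set.

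The direction of the calls differed between groups of probe sets. Among the brightest probe sets of all 9028 genes, 26.0% were higher and 14.0% lower. Further probe sets come only from the 1838 genes with 2 or more. Among these 2379, 11.0% were higher and 22.1% lower, and among the 3836 tested ones with no gene symbol 12.6% and 21.7%. After quantile normalization these shares were 22.3% and 13.4%, 7.52% and 25.3%, and 10.1% and 22.6%. In the 1838 genes that have 2 or more, the brightest probe set leaned lower as well (15.1% higher and 24.5% lower). Within those genes, brightest and further probe sets thus leaned the same way.

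**Figure D5:**
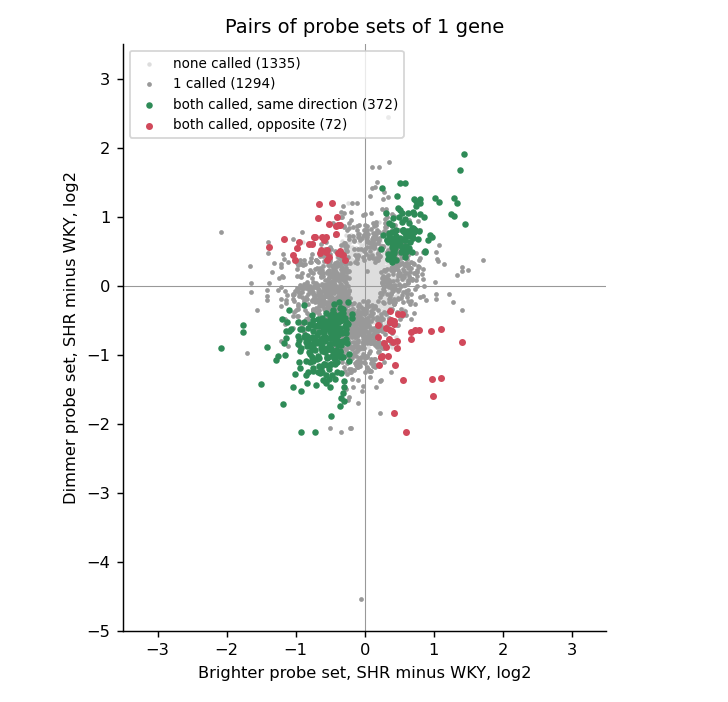
Difference between the strains (SHR minus WKY, log2) of the brighter (horizontal) and dimmer (vertical) probe set in 3073 pairs of probe sets of 1 gene. Green points, both called in the same direction, number 372, red points, called in opposite directions, 72, and the lone point at the bottom is Ptprj (-0.06 and -4.54).

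The regions were unequally like each other. The differences in a region correlated with the mean of the other 5, over 15521 probe sets and as a description, at 0.66 to 0.74 in dorsal striatum (0.73), ventral striatum (0.74), prefrontal cortex (0.69), hippocampus (0.66) and substantia nigra/VTA (0.70), but at 0.33 in the vermis (0.31 after quantile normalization). The vermis arrays stood apart in both strains. The WKY one had a median signal of 153 and 22.2% of its probe sets under 50, against 109 to 122 and 30.8% to 34.3% on the other WKY arrays. The SHR one had 178 and 19.8%, against 132 to 166 and 22.2% to 27.2% on the other SHR arrays. The choroid plexus sum differed between the strains there as given above. The part of these array differences in the low correlation was not tested. Differences were no larger there than elsewhere: 10.2% of its probe sets differed by over 1, within the 8.40% to 12.9% of the others. Among 470 genes past 2-fold in a fit without the vermis, 81.5% had the same sign there, with a median of 0.49 along the call. Their median of 1.18 in the other 5 regions is raised by the choice of genes. For every other region left out in turn the share was 94.2% to 98.8%, and the median in that region 0.97 to 1.23. Without the vermis, 2931 genes were higher (32.5%) and 1573 lower (17.4%).

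Bright genes that set a region apart were named for each. In the vermis Irf2bp2, a transcriptional co-regulator, differed by 1.06 and by -1.52 to -0.59 elsewhere. Bcl11b, a transcription factor of striatal and cortical neurons, differed by 1.62 there against a mean of -0.29 in the other 5 regions, and such means are given for the genes that follow. Inf2, a formin, differed by -1.21 in the vermis against 0.36, and by 0.98 in prefrontal cortex. Crym, a thyroid hormone binding protein, differed by -1.46 in the vermis against -0.00. Outside the vermis, Aldh1a1, of retinoic acid synthesis and dopamine neurons, was higher in ventral striatum (1.40 against 0.06), Kcnc1, a fast potassium channel, likewise (0.83 against -0.18), and Apod, apolipoprotein D, in prefrontal cortex (1.73 against 0.59). Txnip, a brake on thioredoxin, was lower in hippocampus (-1.67 against -0.48) and Ryr2, an intracellular calcium channel, in substantia nigra/VTA (-1.81 against -0.72). Ncam1 was lower in dorsal striatum (-0.67 against 0.41). Each of these regional values rests on 1 array of each strain and has no replicate.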

How the data were processed

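RNA was measured on Affymetrix Rat 230 2.0 arrays. The deposited intensity values are MAS5 signals, per the submitters' processing notes; the version of that software is not given in the sources used here. Each array's 2% trimmed mean was near 500 in the deposited intensity values. Number of arrays limits the precision, and p-values measure only the spread between regions.

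From the deposited values, log2(signal + 1) was taken, 57 control probe sets were left out, and probe sets at or above the median of the mean log2 signal over the 12 arrays (a signal of 123) were tested, 15521 of 31042. Paired differences were tested with limma 3.58.1 in R 4.3.3, with region as a block, a mean-variance trend and 5 residual degrees of freedom. Pairing comes from the labels' regions. A gene was shown by its brightest tested probe set with 1 symbol in the platform annotation. Order, gene length and promoters came from RefSeq tables of GRCr8; 9000 of 9028 genes were placed. The fit was checked on simulated data.

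Named genes were the 10 strongest rises and falls, up to 4 called members per class, members of the 6 longest runs and large genes of the 6 densest windows, 8 genes of each kind of probe set pair, 2 high and 2 low genes per region, and any member of the ADHD, SHR genetics and blood pressure lists; exceptions are marked. The classes, lists, members and rules were chosen with earlier results of these data known. Alternatives were quantile, loess and median-centred scaling, a pseudocount of 16, 2 other filters, no trend, all 24 arrays, no block, a stricter threshold and leaving out each region. Arrays of rats exposed to polychlorinated biphenyls entered only the fit of all 24 arrays.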

Additional observations from a re-analysis of the deposited data

Results flagged for a closer look

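Of 229 groups of 6 regional values looked at (differences of the genes and probe sets named, medians of classes and length groups, and correlations), 36 had 1 region whose gap to the nearest other exceeded Dixon's 95% limit as a share of the whole range. Chance flags about 5% of groups that are independent and not chosen by their values. Many genes here were named for their calls or for 1 region standing apart, so the 36 are not read against that rate. The vermis was the region in 21 of the 36, prefrontal cortex in 5, dorsal striatum, ventral striatum and hippocampus in 3 each and substantia nigra/VTA in 1. Each value rests on 1 array per strain.

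The vermis had the high value for Rac3 (5.06), Hrh3 (4.78), one probe set of Ildr2 (4.43), Plod3 (3.81), Kcnip2 (3.77), Ehbp1l1 (3.04), Lamb2 (2.05), Lrrc45 (1.72), Bcl11b (1.62), N4bp1 (1.53), Pop7 (1.24), Irf2bp2 (1.06) and Oga (0.90). It had the low value for Sult5a1 (0.50), Ptprn (-0.40) and Rfng (-0.54). Its correlation with the other regions stood apart too (0.33), as did its medians for peroxisomal proteins (-0.08), the citric acid cycle (-0.11), the interferon response (-0.28) and the longest 25% of genes (0.02).

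In prefrontal cortex the value apart was that of Tex264 (1.47), Nosip (1.29), Slc44a1 (0.69) and Stk16 (0.01), and the median of the oligodendrocyte markers (0.78). In dorsal striatum it was that of Bdnf (-2.52), Ncam1 (-0.67) and Col1a1 (0.26), and in hippocampus that of Prune1 (-3.27), Cenpq (-1.81) and Bad (0.45). In ventral striatum it was that of Kcnc1 (0.83), Homer1 (-0.56) and Zbtb20 (-0.16), and in substantia nigra/VTA that of one probe set of Ank3 (-3.46). The Homer1 value is of its brightest probe set, which is not in the pair given above.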

How the results depend on the processing

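Scaling, the filter and the block all moved the counts. Centring gave 776 probe sets and 574 genes higher, 6229 and 3244 lower, and past 2-fold 62 genes higher and 407 lower; 97.2% of probe set pairs then shared a direction, and the share of next genes also higher was 1.71 times that of all genes. Past 2-fold higher, quantile normalization gave 136 genes and cyclic loess 134, with 131 and 134 lower. Without a filter 5400 probe sets were higher, 1234 genes were past 2-fold higher and 170 lower, 79.9% of pairs agreed, and next genes were also higher at 1.20 and also lower at 1.52 times the share of all genes. In the upper 25% of signal, where fewer probe sets are tested, 1534 probe sets and 1211 genes were higher, and past 2-fold 45 genes were higher and 59 lower. Without the replicate block (the pairing by region), 1025 probe sets and 777 genes were higher and 872 and 394 lower, 91.1% of pairs agreed, and the ratio for higher neighbours was 1.56. At an adjusted p of 0.01, 1616 probe sets and 1233 genes were higher and 1434 and 672 lower.

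Leaving out 1 region gave 2259 to 3948 probe sets higher and 1951 to 3318 lower, 1693 to 2931 genes higher and 934 to 1573 lower, and past 2-fold 242 to 312 and 84 to 158, with the highest count without the vermis each time. Neighbour ratios were 1.27 to 1.47 and 1.27 to 1.41, agreement of pairs 80.2% to 89.5%, and the gap in median difference between the shortest and longest genes 0.27 to 0.34. Gene length under these settings, and class counts without the vermis or after quantile or loess scaling, were added after seeing the data. Of 161 named differences that were called, 2 changed sign, Speg and Srrt, both -0.02 after centring; 57 lost the call without the block and 2 to 15 when 1 region was left out. The cause of these changes was not tested beyond the numbers given. Dim probe sets limit what can be read: a signal near background in 1 array sets values such as those of Rac3.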
